A study of Saccharomyces cerevisiae with 2 samples.

Results

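The genes described are the ATG genes of S. cerevisiae, which encode the core proteins of autophagy and its selective forms. Members were the mRNA rows of the deposited table whose gene name is ATG followed only by digits, and 34 of the 6420 features, or of 5995 mRNAs, met this rule. The rule uses names and no measured value, although earlier results of these data were known when the genes were chosen. The libraries were the haploid laboratory strain BY4741 (mating type a, of the S288C background) as WT, and its cdc55Δ derivative, which lacks Cdc55p, a regulatory subunit of protein phosphatase 2A. Both cultures were kept without shaking at 30 °C for 6 h in YPD20, a rich medium with 20% glucose, after preculture in YPD, and 1 library was sequenced per strain. The question was how loss of Cdc55p changes transcript levels at the start of alcoholic fermentation. With 1 library per strain there is no replicate check and no test of a strain difference, so every difference below is between these libraries, and strain, culture and library cannot be told apart.

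In autophagy, cytoplasm or a chosen cargo is enclosed in a membrane sac with a double wall, the autophagosome, which fuses with the vacuole, where its content is degraded. In rich medium the TORC1 kinase keeps the pathway low by phosphorylating Atg13, and starvation releases the Atg1 kinase. Yeast also runs the cytoplasm-to-vacuole targeting (Cvt) pathway in rich medium, which uses much of the same machinery to deliver aminopeptidase and mannosidase to the vacuole. Several ATG genes are induced by starvation, and ATG8, ATG7 and ATG9 are known to be held down by transcriptional repressors in growing cells.

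The counts summed to 33233285 in WT and 30133454 in cdc55Δ. CDC55 had 2614 counts in WT and 1 in cdc55Δ, at least 775-fold lower when 3 counts are taken as the floor. Of the mating type markers, the 5 genes of type a had from 1549 to 28311 counts in WT and from 545 to 20926 in cdc55Δ, and each of the 4 of type alpha had fewer than any of them in the same library. LEU2, MET17 (the gene of the met15 marker) and URA3 had at most 2 counts in either library, whereas HIS3, of which BY4741 carries a partial deletion, had 1624 and 1275.

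Promoter windows of 5 members are shown because they belong to the members with the largest differences, namely the 3 that were at least 2-fold higher in cdc55Δ (ATG39, ATG34 and ATG7), ATG8, which was next, and ATG5, which was lowest. Each window runs from 250 bases before the start codon to base 50 of the coding sequence, on the coding strand of the R64 assembly, and is written 5′ to 3′. Capitals mark matches, on either strand, to the motifs searched: AGGGG (the stress response element bound by Msn2p and Msn4p), AGGGAT (core of the post-diauxic shift element), GCCGCC (core of the URS1 site bound by Ume6p), GATAAG (bound by Gln3p and Gat1p) and TGACTC (Gcn4p). The windows lie at chrXII:758784-759083 (ATG39, minus strand), chrXV:165464-165763 (ATG34, plus strand), chrVIII:445463-445762 (ATG7, plus strand), chrII:80682-80981 (ATG8, minus strand) and chrXVI:271060-271359 (ATG5, plus strand).
ATG39: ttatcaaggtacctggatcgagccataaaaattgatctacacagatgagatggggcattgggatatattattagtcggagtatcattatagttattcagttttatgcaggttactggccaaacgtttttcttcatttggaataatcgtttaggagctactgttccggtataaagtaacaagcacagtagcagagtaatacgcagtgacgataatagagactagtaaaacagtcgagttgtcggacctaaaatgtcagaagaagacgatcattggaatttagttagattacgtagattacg
ATG34: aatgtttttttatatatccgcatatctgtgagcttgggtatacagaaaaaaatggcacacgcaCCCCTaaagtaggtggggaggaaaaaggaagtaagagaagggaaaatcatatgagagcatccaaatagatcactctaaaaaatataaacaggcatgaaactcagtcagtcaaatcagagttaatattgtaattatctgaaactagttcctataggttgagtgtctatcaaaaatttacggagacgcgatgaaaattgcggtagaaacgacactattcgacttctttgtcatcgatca
ATG7: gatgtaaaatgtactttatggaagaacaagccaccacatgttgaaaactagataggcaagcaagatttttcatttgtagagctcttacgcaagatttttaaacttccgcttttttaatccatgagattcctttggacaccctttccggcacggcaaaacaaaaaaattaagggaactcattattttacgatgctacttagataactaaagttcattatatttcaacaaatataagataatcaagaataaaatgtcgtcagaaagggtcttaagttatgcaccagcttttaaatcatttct
ATG8: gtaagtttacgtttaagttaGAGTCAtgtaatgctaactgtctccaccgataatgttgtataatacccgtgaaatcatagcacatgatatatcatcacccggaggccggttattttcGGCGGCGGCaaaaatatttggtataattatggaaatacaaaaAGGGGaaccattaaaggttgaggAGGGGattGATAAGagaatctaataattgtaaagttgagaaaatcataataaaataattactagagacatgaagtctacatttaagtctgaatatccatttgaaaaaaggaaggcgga
ATG5: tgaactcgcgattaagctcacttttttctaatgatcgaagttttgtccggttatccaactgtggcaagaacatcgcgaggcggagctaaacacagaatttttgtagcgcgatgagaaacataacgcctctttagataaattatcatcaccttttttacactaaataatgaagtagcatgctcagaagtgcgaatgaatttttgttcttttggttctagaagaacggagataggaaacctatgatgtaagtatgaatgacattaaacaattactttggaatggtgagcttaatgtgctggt

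The windows of ATG39, ATG7 and ATG5 held none of the 5 motifs. That of ATG34 held 1 match to AGGGG, beginning at position -187 from the start codon. That of ATG8 held AGGGG at positions -91 and -68, overlapping matches to GCCGCC at -133 and -130, GATAAG at -60 and TGACTC at -230. A match is only a run of letters, and these windows do not reach motifs farther away. Over the members, AGGGG occurred in 7 of 34 windows (20.6%) and in 21.6% of the 6001 windows of all nuclear protein-coding genes. AGGGAT occurred in 4 members (11.8%) against 9.33% of all windows and GCCGCC in 2 (5.88%) against 5.13%. GATAAG occurred in 10 members (29.4%) against 14.7%, and TGACTC in 6 (17.6%) against 7.98%. No test was made of these shares.

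The ATG mRNAs were scarce in both libraries. Together they held 0.0805% of the counts in WT (95% Clopper-Pearson interval 0.0796% to 0.0815%) and 0.0977% in cdc55Δ (0.0966% to 0.0988%). These intervals, like all intervals below, cover counting error only, and since PCR copies are not independent molecules they are lower limits of the error. On the RPKM scale, the authors' reads per kilobase of transcript scaled to the library total, the median member was at 13.6 in WT and 15.9 in cdc55Δ, whereas the median over all mRNAs was 32.5 and 32.4. In WT, 32 of the 34 members lay below that median of all mRNAs, and 30 did in cdc55Δ. The most abundant by RPKM in WT was ATG27, at 110, followed by ATG5 at 47.9 and ATG19 at 26.7. The least abundant were ATG39 at 0.704, ATG34 at 4.32 and ATG14 at 6.02. The plot of RPKM by gene shows that most of the other members lay close together, so their order in WT is not given.

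**Figure D1:**
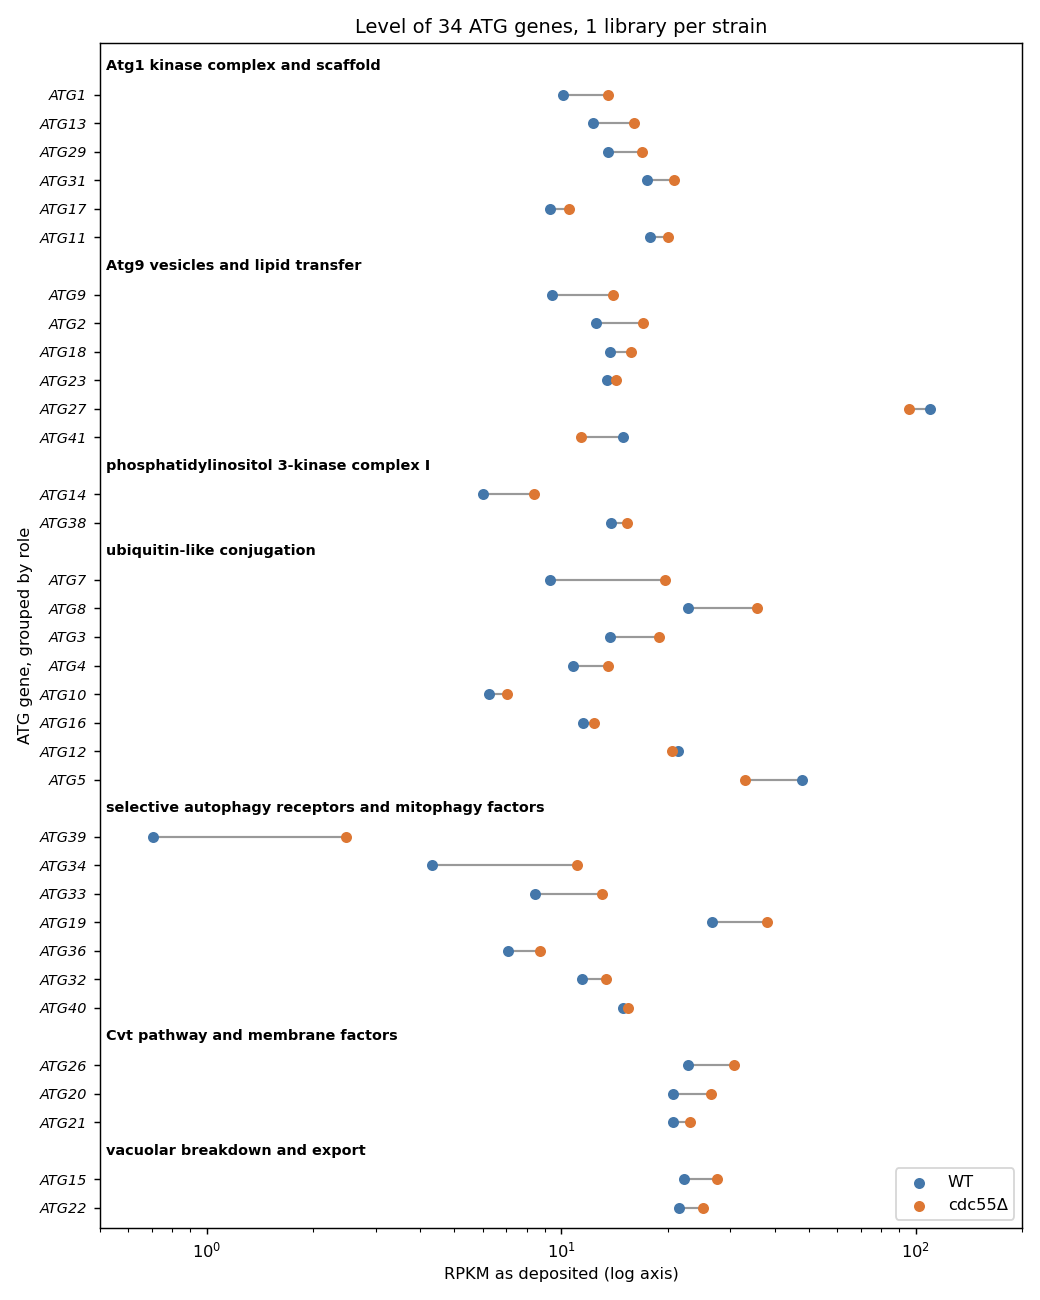
RPKM of the 34 ATG genes as deposited (x axis, log scale), by gene and role group (y axis), with WT in blue, cdc55Δ in orange and a line joining the libraries. ATG27 stands highest in both libraries, at 110 and 95.8, and ATG39 lowest, at 0.704 and 2.47.

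Most ATG genes had more reads in cdc55Δ after scaling, and most of the differences were small. A fold change is here the ratio of cdc55Δ to WT counts after TMM scaling with 0.5 added to each count, given on the log2 scale unless the word fold is used. All 34 members passed the minimum of 50 normalized counts on average over the libraries, as did 5705 features in all. The median over the members was 0.33, and over all 5705 features it was 0.00. The middle 50% of members lay between 0.19 and 0.48, and that of all features between -0.14 and 0.16. Of the 34 members, 30 were above 0, as were 50.4% of all features. At least 2-fold higher were 3 members (8.82%), ATG39, ATG34 and ATG7, beside 1.91% of all features. At least 1.5-fold higher were 6 (17.6%), which adds ATG8, ATG33 and ATG9, beside 5.19%. No member was 1.5-fold lower, a fall seen in 2.96% of all features, or 2-fold lower, seen in 1.03%. The counting interval lay wholly above 0 for 25 members, beside 31.5% of all features, and wholly below 0 for 3 (ATG5, ATG41 and ATG27), beside 28.4%. ATG9, at 1.52-fold, was the member just past the 1.5-fold line, and ATG19, at 1.45-fold, the one just short of it. With upper-quartile scaling or library size alone, ATG9 fell short of the line and 5 members were past it.

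**Figure D2:**
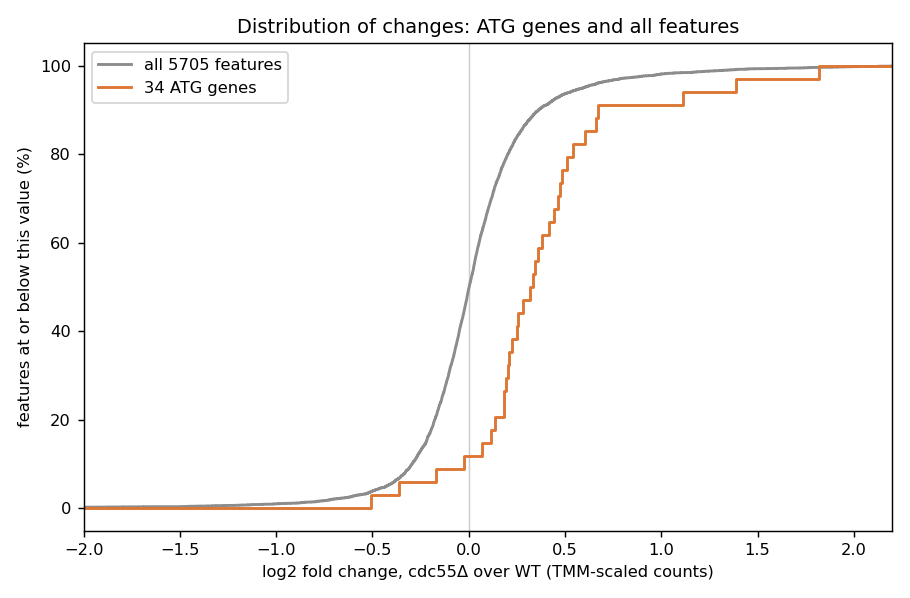
Cumulative share of features (y axis, percent) at or below each log2 fold change of cdc55Δ over WT (x axis), for the 34 ATG genes in orange and all 5705 features in grey. The orange curve lies to the right of the grey one over most of the range, with medians of 0.33 and 0.00.

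The list of selective autophagy receptors, which tie a cargo to the autophagosome, and mitophagy factors had 7 members. All 7 were above 0, beside 50.4% of all features, with a median of 0.54. At least 2-fold higher were 2, beside 1.91% of all features. ATG39, whose product is the receptor for the nuclear envelope and the endoplasmic reticulum around it, had 28 counts in WT and 89 in cdc55Δ. This was 3.53-fold higher, or 1.82 on the log2 scale (95% interval 1.21 to 2.50), the largest difference of any member from the lowest level of any member. The interval is wide because the counts are few, and with a minimum of 200 normalized counts ATG39 was no longer counted. The genes on either side of it on chromosome XII, MRPL15 and CDC25, were at -0.14 and -0.07. ATG34, whose product carries alpha-mannosidase to the vacuole during starvation, went from 178 counts to 415, which is 2.62-fold, or 1.39 on the log2 scale (1.13 to 1.65). The intervals of ATG39 and ATG34 overlap, so these genes cannot be ranked within counting error.

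ATG19, which encodes the receptor of the Cvt pathway, went from 1106 counts to 1431, at 0.54 (0.43 to 0.65). ATG34 and ATG19 are related genes that follow each other on the plus strand of chromosome XV, with 1774 bases between them, and ATG34 lies at 165714 to 166952 and ATG19 at 168727 to 169974. Over 1115 aligned coding bases they were 63.9% identical, and their longest identical run was 12 bases. No 100-base stretch, the length of a read here, of any of the 34 members occurs elsewhere in R64. The interval of ATG34 lies above that of ATG19. In RPKM, ATG19 exceeded ATG34 in both libraries, at 26.7 against 4.32 in WT and at 38.1 against 11.1 in cdc55Δ. The gene on the other side of ATG34, PHM7, was also higher in cdc55Δ, with 0.76, and reads between the genes were not measured.

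Other members of this list act on whole organelles. ATG33, which encodes a mitochondrial outer membrane protein needed for mitophagy, had 166 and 234 counts and a log2 fold change of 0.66 (0.37 to 0.96). ATG32, the mitophagy receptor, had 606 and 643 counts and one of 0.25 (0.09 to 0.42). ATG36, the receptor for peroxisomes, had 208 and 231 counts and one of 0.32 (0.04 to 0.60). ATG40, a receptor for the endoplasmic reticulum, had 383 and 358 counts and one of 0.07, with an interval from -0.14 to 0.28 that includes 0. ATG39 and ATG40, both receptors for parts of the endoplasmic reticulum, thus stood at the opposite ends of this list, and their intervals do not overlap.

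Of the 8 genes for the ubiquitin-like conjugation systems, 6 were above 0, beside 50.4% of all features, with a median of 0.28. Atg8 is attached to phosphatidylethanolamine in the autophagosomal membrane, and Atg12 is attached to Atg5, which binds Atg16. ATG7, whose product is the E1-like enzyme that activates both Atg8 and Atg12, had 584 counts in WT and 1123 in cdc55Δ. It lies on the plus strand of chromosome VIII, from 445713 to 447605, and its log2 fold change was 1.11 (0.97 to 1.26), a 2.16-fold difference whose interval reaches just under 2-fold. Its neighbours NMD3 and SPC97 on the same strand had log2 fold changes of 0.03 and -0.18. ATG8, on the minus strand of chromosome II from 80378 to 80731, had 268 and 380 counts and a log2 fold change of 0.67 (0.44 to 0.90).

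The other genes of the Atg8 arm were also higher. ATG3, which encodes the E2-like enzyme for Atg8, had 426 and 531 counts and a log2 fold change of 0.49 (0.30 to 0.67). ATG4, which encodes the protease that trims Atg8 and frees it from the lipid, had 532 and 608 counts and one of 0.36 (0.19 to 0.53). The remaining genes encode parts of the Atg12 arm. ATG10, which encodes the E2-like enzyme for Atg12, had 105 and 107 counts and one of 0.20 (-0.21 to 0.60). ATG16 had 173 and 169 counts and one of 0.13 (-0.18 to 0.45), and ATG12 had 398 and 348 counts and one of -0.02 (-0.24 to 0.19). For these 3 genes the intervals include 0, so no difference was detectable at this depth.

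ATG5 had the lowest log2 fold change of any member, with 1408 counts in WT and 880 in cdc55Δ, which gave -0.51 (-0.63 to -0.39). In RPKM it went from 47.9 to 33.0. Its neighbours on chromosome XVI, YPL150W and PPT2, had log2 fold changes of -0.12 and 0.15. ATG3, ATG4 and ATG8 thus lay between 0.36 and 0.67, and ATG5, ATG10, ATG12 and ATG16 between -0.51 and 0.20. ATG7, at 1.11, serves both arms and is left out of this split. This split by arm was made after the values were seen, and it rests on the point values, since the intervals of ATG10 and ATG16 each overlap those of ATG3, ATG4 and ATG8.

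**Figure D3:**
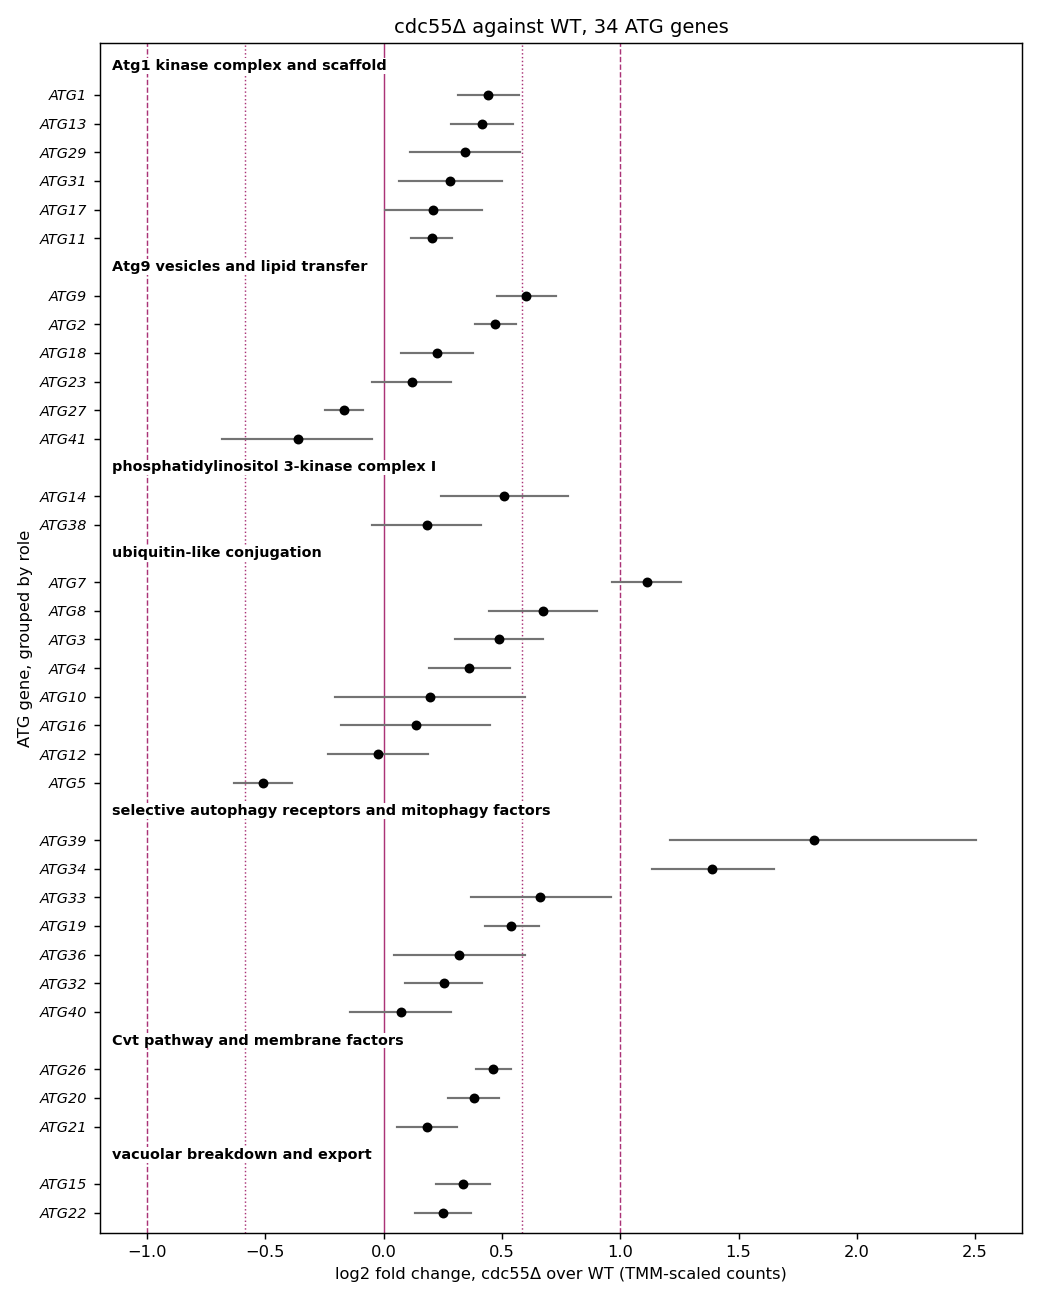
Log2 fold change of cdc55Δ over WT (x axis) of the 34 ATG genes by role group (y axis), with bars for 95% counting intervals, dashed lines at 2-fold and dotted lines at 1.5-fold. ATG39, ATG34 and ATG7 lie past the 2-fold line, and ATG5, ATG41 and ATG27 have intervals wholly below 0.

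The 6 genes of the Atg1 kinase complex and its scaffolds were all above 0, beside 50.4% of all features. Each had an interval above 0, beside 31.5% of all features. They formed a narrow range from 0.20 to 0.44 with a median of 0.31. The interval of ATG17 began at 0.003, so the shift of -0.03 from scaling by library size alone, or of -0.04 from upper-quartile scaling, would take it past 0. None of them reached 1.5-fold. ATG1, which encodes the kinase that starts autophagosome formation, went from 908 counts to 1098, at 0.44 (0.31 to 0.57). ATG13, its regulatory subunit and the target of TORC1, had 906 and 1075 counts and 0.42 (0.29 to 0.54). The genes of the starvation scaffold, ATG17, ATG29 and ATG31, had log2 fold changes of 0.21, 0.34 and 0.28. ATG11, the scaffold of selective autophagy, was lowest, with 2087 and 2137 counts and 0.20 (0.11 to 0.29). ATG29 overlaps SET6 on the opposite strand by 24 bases, and SET6 had a log2 fold change of -1.40. The library kit keeps strand, but the strand setting of the counting was not given in the sources used here, so reads in that overlap can belong to either gene.

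The genes for Atg9 vesicles and lipid transfer were divided. ATG9, which encodes a lipid scramblase carried on the vesicles that seed the autophagosome, went from 936 counts to 1265, at 0.60 (0.48 to 0.73). ATG2, which encodes the protein that transfers lipid to the growing membrane, had 1988 and 2454 counts and 0.47 (0.39 to 0.56), and its partner ATG18 had 687 and 715 counts and 0.23 (0.07 to 0.38). ATG23, whose product helps move Atg9, had 608 and 587 counts and 0.12 (-0.05 to 0.28). ATG27, which acts with ATG23 in Atg9 transport, had 2975 and 2356 counts and was at -0.17 (-0.25 to -0.09). ATG41, which encodes an Atg9-binding protein, had 204 and 141 counts and was at -0.36 (-0.68 to -0.05). The median of these 6 genes was 0.17, the lowest of the role groups.

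The remaining members lay between 0.18 and 0.51. ATG14, which directs phosphatidylinositol 3-kinase to the site of autophagosome formation, had 207 and 262 counts and a log2 fold change of 0.51 (0.24 to 0.78). ATG38, which links the parts of that complex, had 312 and 315 counts and 0.18 (-0.05 to 0.41). Of the Cvt pathway and membrane factors, ATG26, a sterol glucosyltransferase, had 2716 and 3330 counts and 0.46 (0.39 to 0.54). ATG20, a sorting nexin, and ATG21, a phosphoinositide-binding protein, had 0.38 and 0.18. In the vacuole, ATG15 encodes the lipase that breaks the membrane of the delivered body and ATG22 a protein of amino acid export. Their values were 0.33 (0.22 to 0.45) for ATG15 and 0.25 (0.13 to 0.37) for ATG22, from 1153 and 1132 counts in WT and 1294 and 1199 in cdc55Δ.

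The R64 annotation gives an ATG name or synonym to 5 more genes that the table lists under another name or none. VPS30 (also ATG6) had a log2 fold change of 0.27, SNX4 (also ATG24) 0.27, YBR139W (ATG42) 0.55, YIL024C (ATG45) 0.30 and YIL156W-B (ATG44) -0.17. With them the median over 39 genes was 0.30, and the counts past 1.5-fold and 2-fold stayed at 6 and 3.

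Of the 4 genes for cargo of the selective pathways, 2 were at least 2-fold higher in cdc55Δ, beside 1.91% of all features. This short list was chosen with earlier results of these data known. AMS1, which encodes the vacuolar alpha-mannosidase carried by Atg19 and Atg34, went from 533 counts to 1813, at 1.93 (1.79 to 2.08). APE1, which encodes aminopeptidase I, the main cargo of the Cvt pathway, had 1473 and 2767 counts and 1.08 (0.99 to 1.17). APE4, an aspartyl aminopeptidase that also uses Atg19, had 2147 and 2678 counts and 0.49 (0.40 to 0.57), and LAP3 had 3284 and 3322 counts and 0.19 (0.12 to 0.26). Of the vacuolar proteases, PEP4, which encodes the protease that activates the others, had 11651 and 17465 counts and 0.75 (0.72 to 0.79). PRB1, PRC1 and CPS1 had 0.47, 0.26 and -0.08.

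The medians of the genes for fusion with the vacuole and for the control of autophagy lay near that of all features. The 7 fusion genes had a median of 0.05 and none reached 1.5-fold in either direction, with VAM7, a SNARE protein gene, farthest from 0 at -0.25. The 13 regulators had a median of 0.00, and none reached 1.5-fold. Of their counting intervals, 4 lay wholly above 0, beside 31.5% of all features, and 3 wholly below, beside 28.4%. Farthest from 0 was GAT1, which encodes a GATA activator of nitrogen-responsive genes, with 116 and 72 counts and -0.52 (-0.96 to -0.08). RIM15, which encodes a kinase of quiescence entry, was the highest at 0.33 (0.27 to 0.40), and TOR1, a catalytic subunit of TORC1, was at 0.00 (-0.04 to 0.05). The repressor genes UME6 and RPH1, whose products hold down ATG8 and ATG7 among others, were at -0.07 and 0.24. Of 10 autophagy genes listed under other names, 9 were found, since the tenth, UGT51, is ATG26 in the table. They include VPS30 and SNX4, and had a median of 0.25, with NVJ1, of the contact between nucleus and vacuole, highest at 0.39.

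**Figure D4:**
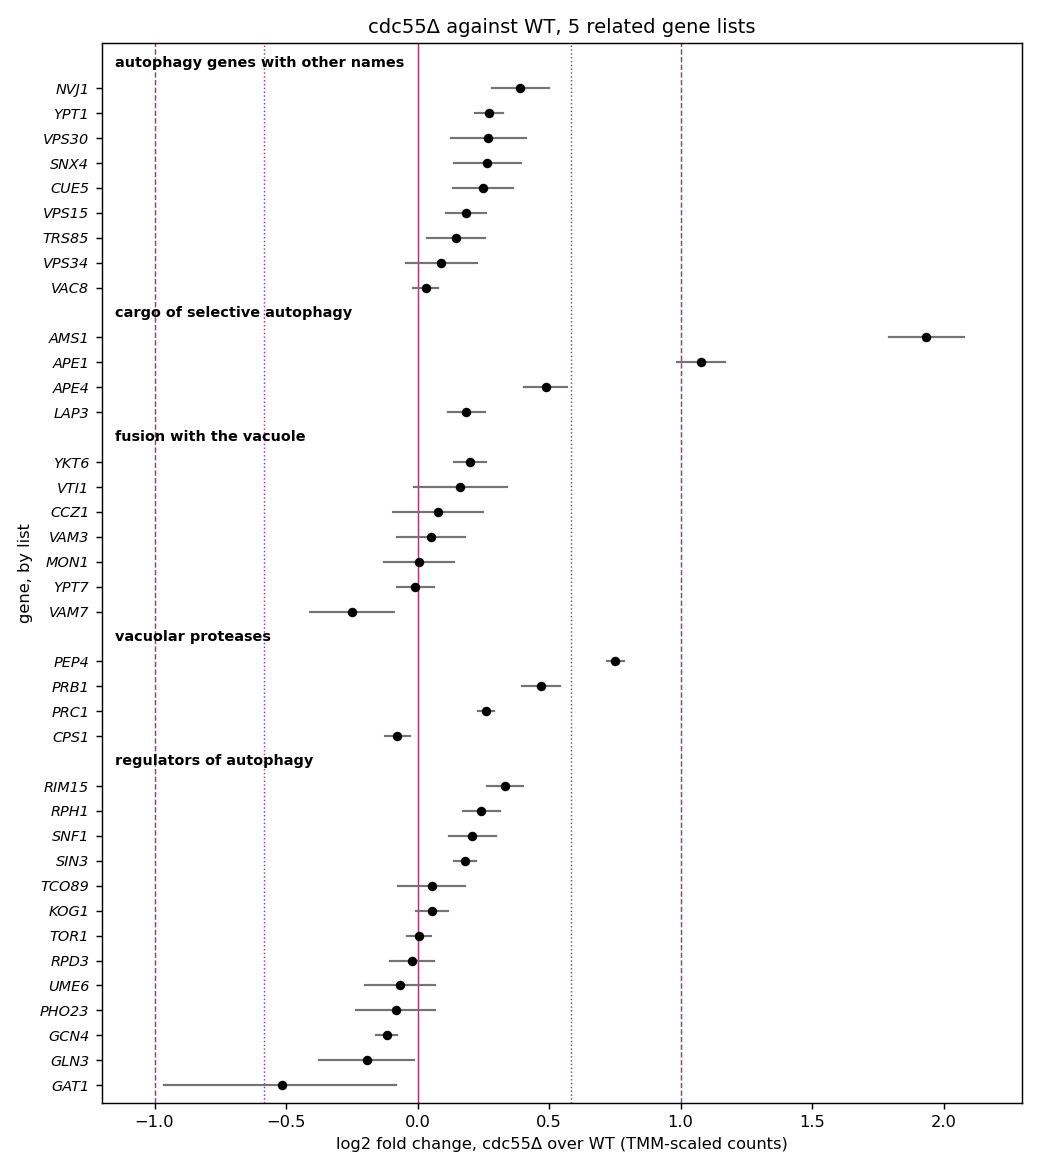
Log2 fold change of cdc55Δ over WT (x axis) of the genes in 5 related lists (y axis), with bars for 95% counting intervals, dashed lines at 2-fold and dotted lines at 1.5-fold. AMS1 and APE1 lie past the 2-fold line, PEP4 lies past 1.5-fold, and the regulators lie between -0.52 and 0.33.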

How the data were processed

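The deposited table holds 1 RNA-seq library of each strain. Demultiplexing by the authors used Cutadapt and mapping used hisat2 2.2.1 with S288C as the reference, and they deposited whole-number counts per transcript. The submitters' processing notes also name featureCounts. Strand setting and treatment of multi-mapped reads were not given in the sources used here. The authors also deposited RPKM values, quoted as given, and TPM values, which were not used. Positions came from R64 through RefSeq accessions. All 34 members matched, 33 with the R64 gene length (ATG38 is listed without its intron).

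Counts were scaled with TMM in edgeR 4.0.16 (R 4.3.3). Log2 fold changes (prior count 0.5) and 95% Clopper-Pearson intervals of a gene's cdc55Δ read share came from SciPy 1.17.1 and pandas 2.3.3 under Python 3.11.15, at a mean of at least 50 normalized counts. Thresholds of 2-fold and 1.5-fold stand in for a test, since 1 library per strain leaves the quasi-likelihood test of edgeR without residual degrees of freedom. The study itself called differentially expressed genes with edgeR, and its list of genes increased in cdc55Δ includes ATG7, AMS1 and APE1. ATG7 is the only ATG gene in that list. ATG39 and ATG34, also at least 2-fold higher here, are not in it, and neither is PEP4. Those calls were not repeated here. The study's normalization, iterated DEGES, with 3 rounds, DESeq2 1.42.0 size factors, library size, upper-quartile scaling and other prior counts and minimums were alternatives. The fold change calculation was also run on simulated counts of 6420 features with 200 changed, and its outcome is not given here. Those counts were drawn around the WT library with an assumed spread, so they do not measure the error in these data.

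All members are accounted for. Values are given for those at least 1.5-fold apart, the extremes of each role group and of RPKM, ATG1, ATG8, CDC55, and in related lists those at least 1.5-fold apart and the farthest from 0. Other named genes were picked with their values in view. The members and lists were chosen with earlier results of these data known.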

Additional observations from a re-analysis of the deposited data

How the results depend on the processing

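All 34 log2 fold changes stayed inside their own counting intervals under the 4 other normalizations and 2 other prior counts, moving by at most 0.05. The median over the ATG genes was 0.30 with library size only, 0.29 with upper-quartile normalization and 0.30 with the 5 genes that carry an ATG name only in R64, a choice made after seeing the data. The number at least 2-fold higher was 3 throughout, except 2 with a minimum of 200 normalized counts, which removes ATG39. The number at least 1.5-fold higher was 5 with library size only, upper-quartile normalization or that minimum, and 6 otherwise. No member was 1.5-fold lower under any alternative. Leaving out ATG29, whose gene overlaps SET6, gave a median of 0.32, also chosen after seeing the data. The median over the 13 regulators changed sign, to -0.022 with library size only and -0.037 with upper-quartile normalization. Under both scalings, some other medians moved beyond the counting interval of their summed counts and kept their sign. These were the medians of the ATG genes, of the autophagy genes with other names and of the vacuolar proteases. That of the fusion genes did so with upper-quartile scaling only. The ATG median also moved beyond its interval with the 5 added genes. No paired analysis was possible because each strain has 1 library. For the same reason no replicate could be left out. Depth limits ATG39 and ATG10 most, with 28 and 105 counts in WT.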
